A study of Mus musculus with 5 samples.

Results

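The genes of the IL-1 family described here were 10 of the 52143 genes in the table of colon tumor expression. They were chosen by what they encode, with earlier results of these data known. The set held the agonist cytokine genes Il1a, Il1b, Il18, Il33, Il36a and Il36g, the antagonist gene Il1rn, and the receptor genes Il1r1, Il1r2 and Il1rl1. The table listed 8 of them under these symbols and 2 under older ones, Il36a as Il1f6 and Il36g as Il1f9. RNA came from tumors induced by the carcinogen azoxymethane (AOM) together with dextran sulfate sodium (DSS), a polymer that damages the colon lining. There were 2 Control mice (Villin1-Cre-ERT, replicates 1 and 4) and 3 SIGLEC12 mice (SIGLEC12-Villin1-Cre-ERT, replicates 2, 3 and 4). All 5 carried a tamoxifen-activated Cre recombinase driven by the villin promoter of intestinal epithelium, so the human SIGLEC12 knock-in was switched on in epithelium while the tumor RNA came from every cell present. Mice of both groups were 8 weeks old at the start, were given tamoxifen for 5 days, AOM at 10 mg/kg and repeated cycles of 2% DSS for 5 days with 14 days of recovery, and were killed on day 87.

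IL-1 family cytokines are alarm signals of injured or infected tissue. IL-1α and IL-1β act through IL-1R1, IL-18 and IL-33 through receptors of their own, and the IL-36 cytokines mainly on epithelia. IL-1β and IL-18 are made as inactive precursors that the protease caspase-1 cuts inside inflammasomes, whereas IL-1α and IL-33 are held in cells and set free by damage. The family carries its own brakes: the receptor antagonist (Il1rn) occupies IL-1R1 without signalling, IL-1R2 binds IL-1 as a decoy, and ST2, the IL-33 receptor encoded by Il1rl1, also exists as a soluble decoy. In the injured colon, IL-1β comes largely from myeloid cells, and IL-18 and IL-33 are made largely by epithelium and stroma.

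The genes lay in 4 places of GRCm38. Il1r2, Il1r1 and Il1rl1 stood on the plus strand of chromosome 1 at 40074079 to 40125231, 40225080 to 40317257 and 40429570 to 40465415. On chromosome 2, Il36g (24186476 to 24193568), Il36a (24215418 to 24225702) and Il1rn (24336853 to 24351494) were neighbors on the plus strand, and Il1a (129299610 to 129309972) and Il1b (129364570 to 129371139) were neighbors on the minus strand. Il18 was on chromosome 9 (50554827 to 50581840) and Il33 on chromosome 19 (29925114 to 29960718), both on the plus strand. The 250 bases before the annotated starts of Il1b, Il1rn and Il1rl1 are printed below from RefSeq (GRCm38.p6), except for the second Il1rn start. These genes were taken because they had the clearest differences between the groups. Capitals mark the letters GGGNNNNNCC (κB, a loose form of the site of NF-κB, the factor through which IL-1 receptors act), TGANTCA (AP-1) and TATAAA (the TATA box), each searched on both strands.
Il1b, minus strand, chr2:129371140-129371389: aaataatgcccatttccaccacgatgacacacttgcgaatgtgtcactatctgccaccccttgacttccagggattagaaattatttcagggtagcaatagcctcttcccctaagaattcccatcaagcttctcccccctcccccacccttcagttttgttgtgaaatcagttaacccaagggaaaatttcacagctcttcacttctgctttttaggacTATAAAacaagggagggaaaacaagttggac
Il1rn first start, plus strand, chr2:24336610-24336859: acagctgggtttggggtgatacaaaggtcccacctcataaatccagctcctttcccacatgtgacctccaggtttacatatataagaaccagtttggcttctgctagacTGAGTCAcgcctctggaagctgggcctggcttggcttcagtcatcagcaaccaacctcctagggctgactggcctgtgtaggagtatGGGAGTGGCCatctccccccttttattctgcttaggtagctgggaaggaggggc
Il1rn last start, plus strand, chr2:24345121-24345370: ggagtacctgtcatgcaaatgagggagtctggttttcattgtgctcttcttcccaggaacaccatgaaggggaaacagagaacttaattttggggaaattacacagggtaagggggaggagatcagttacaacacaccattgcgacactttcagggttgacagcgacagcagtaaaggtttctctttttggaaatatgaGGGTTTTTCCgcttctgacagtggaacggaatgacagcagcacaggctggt
Il1rl1 first start, plus strand, chr1:40429320-40429569: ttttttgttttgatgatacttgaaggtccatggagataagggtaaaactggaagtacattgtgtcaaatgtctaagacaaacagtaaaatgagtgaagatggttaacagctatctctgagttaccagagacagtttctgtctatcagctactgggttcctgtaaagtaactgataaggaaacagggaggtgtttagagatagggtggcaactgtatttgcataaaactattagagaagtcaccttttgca
Il1rl1 second start, plus strand, chr1:40439379-40439628: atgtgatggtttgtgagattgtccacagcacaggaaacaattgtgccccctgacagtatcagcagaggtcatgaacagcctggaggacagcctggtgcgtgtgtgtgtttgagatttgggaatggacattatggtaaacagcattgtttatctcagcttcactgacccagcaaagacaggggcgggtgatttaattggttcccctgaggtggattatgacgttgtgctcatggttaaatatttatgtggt
In Il1b the TATA letters were followed by 25 bases before the first transcribed base. The first Il1rn start held AP-1 letters and κB letters, the last held κB letters, and no marked letters overlapped each other. The second Il1rn start (chr2:24345041-24345290), which is not printed, held none of the 3 sets of letters. Neither window of Il1rl1 held any of the 3 sets of letters. The first of its starts is known from mast cells and the second from fibroblasts, and a table per gene does not separate them. RefSeq promoters were at hand for 9 of the 10 genes, all but Il36a, with 14 starts in all, 3 of them for Il1rn. TATA letters were in 5 of these (Il1a, Il1b, Il18 and both of Il33) against 12.4% of 32851 mouse promoters. Their distance to the first transcribed base was 26 bases in Il1a, 25 in Il1b and 23 in the second start of Il33. It was 169 bases in Il18, where the letters were on the other strand, and 197 in the first start of Il33. AP-1 letters were in 2 (Il1a and the first of Il1rn) against 6.75%, and κB letters in 3 against 45.8%. A match describes the letters only, and which start was used in these tumors was not measured.

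Values below are TPM, the abundance of a gene's transcripts per length, scaled so that all RNA of a sample has the same total. Protein-coding genes took 5.70% and 6.73% of it in Control replicates 1 and 4 and 8.85%, 8.75% and 9.72% in SIGLEC12 replicates 2, 3 and 4. The comparisons are therefore given also after every sample was rescaled to the same protein-coding total. Since protein-coding RNA was a small part of the total, a value under 1 TPM does not show that a gene was nearly absent. Control replicate 1 stood apart from the other 4 samples. Its squamous markers (11 genes such as Krt5 and Krt14) summed to 3027 TPM against 426 to 1146 elsewhere. All 10 of its columnar markers (such as Epcam and Krt8) were lowest, with Epcam at 29.3 TPM (78.4 to 132 TPM elsewhere). This was not particular to columnar markers. The sample was also lowest for 21 of 25 signalling genes downstream of the receptors, though for only 1 of the 11 squamous markers. The share over all genes was not computed. In this sample 7947 genes reached 1 TPM against 9532 to 10090. Depth is unknown for these values. In bulk tumor RNA, fewer cells of a type and less RNA per cell cannot be told apart.

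Il1rn had the highest mean level of the family, 28.7 TPM over the 5 samples, and exceeded Il18, the next gene, in 5 of 5 samples. Il18 followed at 10.0 TPM, Il33 at 5.10, Il1b at 4.01 and Il1rl1 at 3.59. The remaining genes averaged 1.87 TPM for Il36g, 1.79 for Il1r1, 1.54 for Il1r2, 0.737 for Il1a and 0.712 for Il36a. The order was loose, since the ranges of all 9 neighboring pairs overlapped. Il33 exceeded Il1b, the gene after it, in only 1 of 5 samples, and Il36g exceeded Il1r1 in only 1, so these ranks rested on Control replicate 1. That sample was the lowest of the 5 for 5 genes (Il1a, Il1b, Il1rn, Il18 and Il1rl1) and the highest for 2 (Il33 and Il36g).

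**Figure D1:**
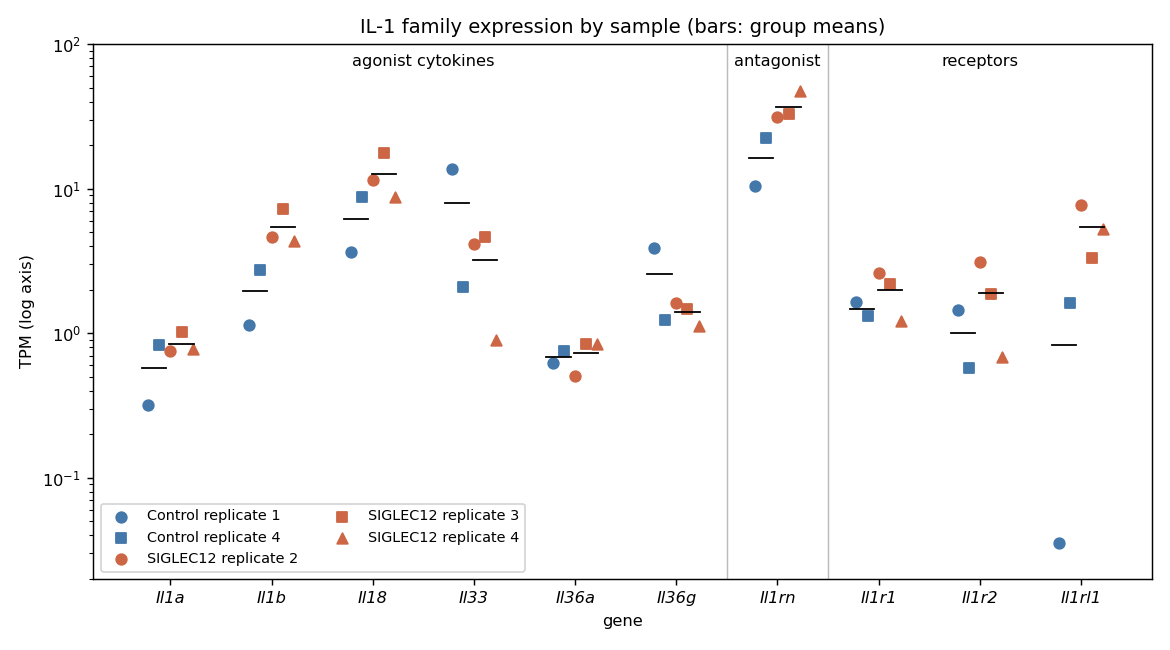
TPM of the 10 IL-1 family genes on a log axis in the 2 Control (blue) and 3 SIGLEC12 (orange) tumors, 1 point per sample, with short bars at the group means. Il1rn lies highest, the groups separate for Il1b, Il1rn and Il1rl1, and Control replicate 1 is highest for Il33 and Il36g.

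The question for each gene was whether SIGLEC12 tumors differed from Control tumors. Il1rl1, Il1b and Il1rn were higher in SIGLEC12, by 1.91, 1.15 and 1.19 on the log2(TPM + 1) scale, and the groups did not overlap for any of the 3. No gene of the family passed an adjusted p under 0.05 with a 2-fold change in limma across the 10338 genes tested, of which 0% passed. A looser rule, 2-fold with p of 0.05 or less before adjustment (the unadjusted threshold), called these 3 of the 8 family genes tested as higher and 0 as lower, where 3.97% of all genes were higher and 0.445% lower. Il1a and Il36a stayed below the filter of 1 TPM in 2 samples. Non-overlap of the groups with SIGLEC12 higher was common in the table, at 54.1% of all genes tested, so 3 of 8 was not more than the background. With SIGLEC12 lower it was found for 0 of 8, against 1.67%. Of the 8 genes, 6 had a fold change above 0, against 87.2% of all genes.

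**Figure D2:**
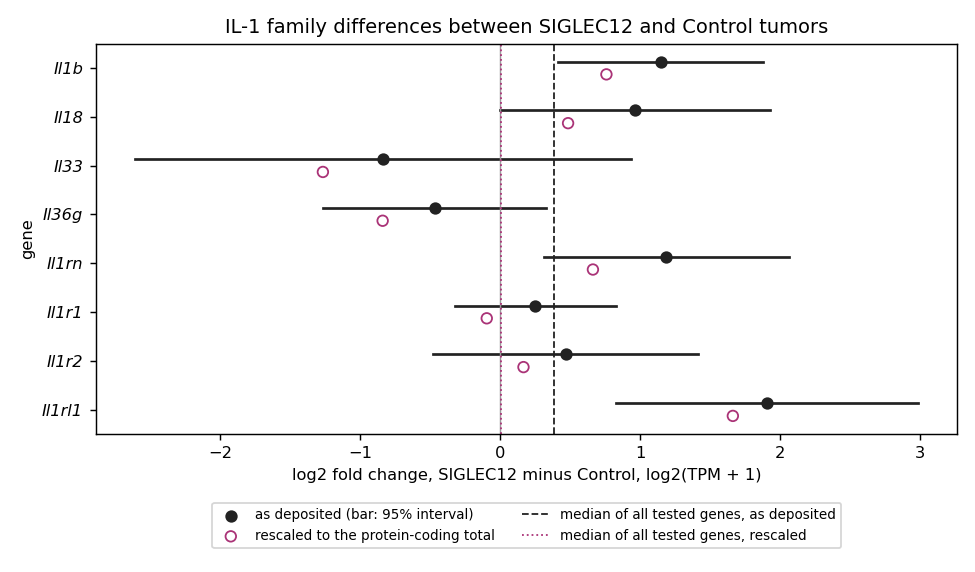
Log2 fold change, SIGLEC12 minus Control, on the log2(TPM + 1) scale for the 8 tested genes, as deposited (filled, with the 95% interval from limma) and after rescaling (open), with the medians of all tested genes as vertical lines. The intervals of Il1b, Il1rn and Il1rl1 lie above 0 as deposited, and each gene moves left by rescaling.

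Scaling and the sample set apart bore on these calls. The median log2 fold change was 0.72 over the 8 genes and 0.38 over all genes, and after rescaling 0.33 and 0.01. Rescaling left 1 gene, Il1rl1, at the unadjusted threshold, where 0.368% of all genes were higher. Groups of Il1b, Il1rn and Il1rl1 still did not overlap, against 15.6% of all genes, and Il36g was then lower without overlap, against 16.8%. Without Control replicate 1, which leaves 1 Control sample that is assumed to vary as the others do, Il1rl1 again was the only one of the 8 called, with a background of 1.4%. With both changes together 0 of the 8 were called, with a background of 0.264%. Without Control replicate 4, so against Control replicate 1 alone, Il1b, Il1rn, Il18 and Il1rl1 were higher and Il36g lower with an adjusted p under 0.05, 5 of 8 beside 11.5% of all genes.

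Of the agonists, Il1b, the gene of IL-1β, was at 1.15 and 2.74 TPM in Control and at 4.60, 7.19 and 4.37 TPM in SIGLEC12. Every SIGLEC12 sample was above both Control samples, with Control replicate 1 lowest and SIGLEC12 replicate 3 highest. On the log2 scale the groups were at 1.50 ± 0.57 (SD, n = 2) and 2.65 ± 0.34 (SD, n = 3), a difference of 1.15 (SE 0.30, limma unadjusted p = 0.00815, adjusted p = 0.0974). Rescaled, the difference was 0.76 (limma unadjusted p = 0.0466, adjusted p = 0.457), which no longer reached 2-fold. It was 0.74 when Control replicate 1 was left out (limma adjusted p = 0.314) and 0.95 when SIGLEC12 replicate 3 was (limma adjusted p = 0.211), both under 2-fold. The antisense gene Il1bos, which overlaps the 5′ end of Il1b, was at 0.0836 to 0.185 TPM, and whether counting used strand is not stated.

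Il1a, the gene of IL-1α, stood at 0.317 and 0.826 TPM in Control and at 0.751, 1.02 and 0.773 TPM in SIGLEC12. It was at 1.02 TPM or less in every sample, and Control replicate 4 lay inside the SIGLEC12 range. Although it neighbors Il1b, its log2 difference was 0.25 (limma with no filter, adjusted p = 0.854), and 0.04 after rescaling. Il1b exceeded it in all 5 samples.

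Il18, whose product acts on lymphocytes and epithelium, was at 3.63 and 8.71 TPM in Control and at 11.5, 17.5 and 8.70 TPM in SIGLEC12. SIGLEC12 replicate 4 and Control replicate 4 were almost level, so the groups overlapped, and Control replicate 1 was lowest. The log2 difference was 0.96 (SE 0.40, 95% interval 0.00 to 1.93, limma unadjusted p = 0.0504, adjusted p = 0.146) and 0.48 after rescaling (limma adjusted p = 0.602). Leaving out Control replicate 1 gave 0.43 (limma adjusted p = 0.555), and leaving out SIGLEC12 replicate 4 gave 1.18 (limma unadjusted p = 0.0330, adjusted p = 0.184). Bco2, which overlaps Il18 on the other strand, was at 0.264 to 1.23 TPM.

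Il33, the nuclear alarm cytokine, differed most among samples of the same group on the log2 scale. It was at 13.8 and 2.10 TPM in Control and at 4.14, 4.59 and 0.890 TPM in SIGLEC12. Control replicate 1 was highest and SIGLEC12 replicate 4 lowest, with Control replicate 4 between the SIGLEC12 samples. The log2 difference of -0.84 (SE 0.74, limma adjusted p = 0.413) was smaller than the Control SD of 1.59, and after rescaling the difference was -1.27 (limma adjusted p = 0.533). Leaving out Control replicate 1 gave 0.29 and leaving out Control replicate 4 gave -1.96, so its direction hung on 1 sample.

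Il36g, an epithelial cytokine of the IL-36 group, followed the same order at its extremes. It was at 3.91 and 1.23 TPM in Control and at 1.61, 1.47 and 1.12 TPM in SIGLEC12, where 4 of the samples lay close together and Control replicate 1 above them. The log2 difference was -0.47 (SE 0.33, limma adjusted p = 0.318) and -0.84 after rescaling (limma unadjusted p = 0.0845, adjusted p = 0.466). Rescaled, the groups did not overlap, but Control replicate 4 (1.453 TPM) and SIGLEC12 replicate 2 (1.448 TPM) were almost level. Under other scalings (median-ratio size factors, quantile normalization) 0 of the tested members were lower without overlap. With Control replicate 1 left out, the Il36g difference as deposited was 0.10. Il36a, its neighbor on chromosome 2, was at 0.620 and 0.753 TPM in Control and at 0.503, 0.839 and 0.846 TPM in SIGLEC12, a log2 difference of 0.03 with overlapping groups (limma with no filter, adjusted p = 1). After rescaling that difference was -0.20, and the SIGLEC12 samples were all lower.

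The antagonist gene Il1rn was at 10.5 and 22.3 TPM in Control and at 31.0, 32.6 and 47.0 TPM in SIGLEC12. The groups did not overlap, and Control replicate 1 was again lowest. On the log2 scale they were at 4.03 ± 0.72 (SD, n = 2) and 5.22 ± 0.32 (SD, n = 3), a difference of 1.19 (SE 0.36, limma unadjusted p = 0.0156, adjusted p = 0.101). Rescaling brought the difference to 0.66 (limma adjusted p = 0.466), and leaving out Control replicate 1 brought it to 0.68 (limma adjusted p = 0.348).

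The balance of antagonist and agonist was compared within samples. Il1rn exceeded Il1b by 9.16-fold and 8.11-fold in Control and by 6.75-fold, 4.54-fold and 10.7-fold in SIGLEC12, so the antagonist transcript was the more abundant in every tumor. The Control ratios lay inside the SIGLEC12 range, and the log2 balance differed by 0.04 (2-sided exact permutation p = 0.9, where 0.1 is the smallest that 2 against 3 samples allow), and by -0.10 after rescaling (exact permutation p = 0.7). Against Il1a, the ratio of Il1rn was 33.1 and 26.9 in Control and 41.3, 32.0 and 60.8 in SIGLEC12. This balance was higher by 0.94 in SIGLEC12 on the log2(TPM + 1) scale without overlap (exact permutation p = 0.1), and by 0.62 after rescaling, although the plain ratios overlapped, since the pseudocount weighs on a gene as low as Il1a.

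Of the receptor genes, Il1r1, the signalling receptor of IL-1, was at 1.64 and 1.31 TPM in Control and at 2.60, 2.18 and 1.21 TPM in SIGLEC12. SIGLEC12 replicate 4 was lowest and replicate 2 highest, so the groups overlapped. The log2 difference was 0.25 (SE 0.24, limma adjusted p = 0.446) and -0.10 after rescaling. Il1r2, the decoy, was at 1.44 and 0.575 TPM in Control and at 3.11, 1.87 and 0.687 TPM in SIGLEC12, with overlap as well. Its log2 difference was 0.47 (SE 0.39, limma adjusted p = 0.391) and 0.17 after rescaling. The decoy was at 0.876-fold and 0.439-fold of Il1r1 in Control and at 1.20-fold, 0.856-fold and 0.566-fold in SIGLEC12. The log2 balance differed by 0.22, within the spread of the samples (exact permutation p = 0.5), and by 0.26 after rescaling.

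Il1rl1, which encodes the IL-33 receptor ST2, had the widest range of the family. It was at 0.0356 and 1.61 TPM in Control and at 7.73, 3.33 and 5.23 TPM in SIGLEC12. The groups did not overlap, and in Control replicate 1 the gene was near 0 while Il33 was at its highest. On the log2 scale the groups were at 0.72 ± 0.94 (SD, n = 2) and 2.63 ± 0.51 (SD, n = 3). The difference was 1.91 (SE 0.45, limma unadjusted p = 0.00453, adjusted p = 0.0974), and 1.66 after rescaling (limma unadjusted p = 0.0154, adjusted p = 0.457). Leaving out Control replicate 1 gave 1.24 (limma unadjusted p = 0.0216, adjusted p = 0.314) and leaving out Control replicate 4 gave 2.58. With a pseudocount of 0.1 it was 3.44, so its size depended on how values near 0 are handled. The ratio of Il33 to Il1rl1 TPM, set up after the values were seen and not tested, was 387 and 1.30 in Control and 0.536, 1.38 and 0.170 in SIGLEC12.

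**Figure D3:**
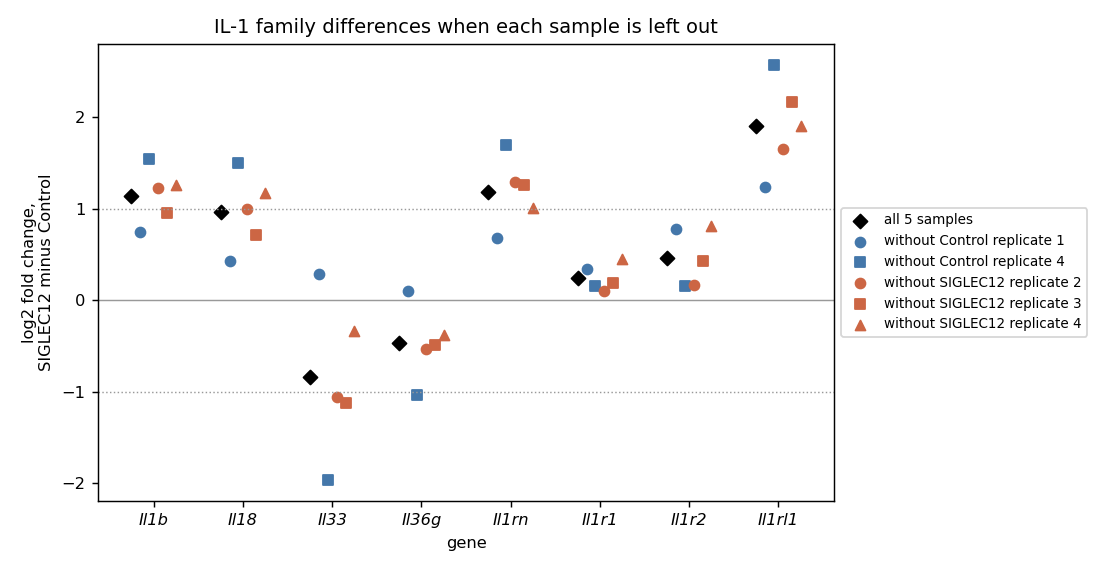
Log2 fold change, SIGLEC12 minus Control, on the log2(TPM + 1) scale for the 8 tested genes with all 5 samples (diamonds) and with each sample left out (other markers), dotted lines marking 2-fold. Leaving out Control replicate 1 takes Il33 and Il36g above 0 and brings Il1b and Il1rn under 2-fold, while Il1rl1 stays above 2-fold in all 6 fits.

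The members were then set beside markers of cell types a tumor can hold. Each of the 10 genes was taken as a percent of the summed TPM of 5 marker lists, 50 ratios in all, and for each gene the list with the narrowest range over the 5 samples is given, as a description. Il1rn was 2.56% and 1.79% of the columnar epithelial sum in Control and 2.25%, 2.67% and 2.34% in SIGLEC12. That is a range of 1.49-fold, against 4.48-fold for its TPM. Il1b was also narrowest against that sum, at 0.279% and 0.220% in Control and 0.333%, 0.589% and 0.218% in SIGLEC12, a range of 2.70-fold against 6.28-fold for its TPM. For Il1a, again with that list, the range was 2.17-fold against 3.22-fold. In the columnar list, 4 of the 9 tested markers were higher at the unadjusted threshold and 0 lower, and 0 were past it after rescaling or without Control replicate 1. As deposited, 3.97% of all genes were higher at that threshold. The sum of the columnar list differed between the groups with an exact permutation p of 0.2. Control replicate 1 was lowest for all 10 genes of the list, as it was for Il1rn, Il1b and Il1a. It was lowest for 21 of 25 signalling genes too. How many other genes narrow as much against this sum was not examined. The part of epithelial content in the Il1rn, Il1b and Il1a values was not tested.

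Il1r2 was 12.3% and 11.2% of the macrophage and monocyte sum in Control and 13.6%, 7.61% and 10.8% in SIGLEC12, a range of 1.78-fold against 5.41-fold for its TPM. That sum was 11.6 and 5.14 TPM in Control and 22.9, 24.6 and 6.36 TPM in SIGLEC12, with 0 of its 6 tested genes called and Adgre1, Mrc1 and Ly6c2 under 1 TPM in every sample. SIGLEC12 replicates 2 and 3 were high for both, and replicate 4 lay with Control replicate 4. Il1r1 was narrowest with the same list, but its range of 2.86-fold was wider than the 2.14-fold of its TPM.

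The neutrophil sum was 22.4 and 25.8 TPM in Control and 26.0, 48.6 and 55.3 TPM in SIGLEC12, with 0 of 3 tested genes called and Cxcr2, Mmp8, Mmp9 and Stfa1 under 1 TPM throughout. Ly6g made most of it in Control replicate 4 (17.4 TPM) and in SIGLEC12 replicates 2 (15.1 TPM) and 4 (44.8 TPM). In those samples a ratio to this sum rested mostly on 1 gene. S100a8 was highest in SIGLEC12 replicate 3 (18.0 TPM) and next in Control replicate 1 (9.99 TPM). Il18 was narrowest with this list, at 16.2% and 33.7% of the sum in Control and 44.0%, 36.0% and 15.7% in SIGLEC12, a range of 2.80-fold against 4.82-fold for its TPM and 3.31-fold with the columnar list. Il36a had a range of 1.90-fold with it, wider than the 1.68-fold of its TPM, and Il1b one of 3.45-fold. The part of myeloid cells in the Il1b, Il18, Il1r1 and Il1r2 values was not tested.

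The sum of the squamous markers was highest in the sample where Il33 and Il36g were highest, and 8 of the 11 genes were, while Krt4 was lowest there (18.8 TPM against 56.6 to 174 TPM) and Krt13 was highest in SIGLEC12 replicate 2. The sum was 3027 and 642 TPM in Control and 1146, 426 and 632 TPM in SIGLEC12. Of the 10 tested genes 0 were higher and 0 lower at the unadjusted threshold, against 3.97% and 0.445% of all genes. Without overlap 3 were lower, against 1.67% of all genes. The median log2 fold change was -1.01, against 0.38 for all genes (Ivl was under 1 TPM in every sample). After rescaling 4 were lower at that threshold (Trp63, Dsg3, Krt15 and Krt5), as were 142 of all 10338 genes tested. The median was then -1.51, against 0.01 for all genes. Il36g was 0.129% and 0.192% of that sum in Control and 0.141%, 0.345% and 0.178% in SIGLEC12, a range of 2.67-fold against 3.48-fold for its TPM. For Il33 the range was 7.67-fold against 15.5-fold. Il1rl2, the receptor of the IL-36 cytokines, was also highest in Control replicate 1, at 4.18 TPM against 2.01 to 2.28 TPM in the other 4 samples. The part of squamous epithelium in these values was not tested.

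Il1rl1 was 15.4% of the fibroblast sum in Control replicate 4 and 13.4%, 18.5% and 21.4% in SIGLEC12, but 0.408% in Control replicate 1. The fibroblast sum itself was 8.71 and 10.5 TPM in Control and 57.9, 18.0 and 24.4 TPM in SIGLEC12. Of its 5 tested markers 2 were higher at the unadjusted threshold, Dcn by 1.75 and Col3a1 by 1.44 on the log2 scale. Of all genes, 3.97% were higher at that threshold. After rescaling, Dcn alone of the 5 was past it, where 0.368% of all genes were higher. Without Control replicate 1, which leaves 1 Control sample, fewer of the 5 were past it than with all samples. Mast cell markers, of which 0 of 6 passed the filter, summed to 0.652 and 1.18 TPM in Control and 9.19, 2.46 and 1.31 TPM in SIGLEC12, highest in the sample with the most Il1rl1. Mcpt1 (4.50 TPM) and Mcpt2 (2.16 TPM) made most of the sum in that sample, and Cpa3, Fcer1a and Tpsb2 were under 1 TPM in every sample. Endothelial markers, of which 0 of 5 passed the filter, summed to 0.762 and 0.825 TPM in Control and 4.27, 1.67 and 2.46 TPM in SIGLEC12 (exact permutation p = 0.2). As deposited, the endothelial sums had the same order of samples as Il1rl1, and so had the fibroblast sums. All 5 endothelial genes were higher in SIGLEC12 without overlap. Such non-overlap was found for 54.1% of all genes tested, which did not include these 5. After rescaling the endothelial sums were 1.06 and 0.974 TPM in Control and 3.84, 1.52 and 2.01 TPM in SIGLEC12. Non-overlap of these single genes was not examined after rescaling. The list for T cells and innate lymphoid cells had 0 of 7 genes past the filter and summed to between 0.713 and 1.68 TPM. The part of fibroblasts, mast cells and endothelium in the Il1rl1 values was not tested.

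**Figure D4:**
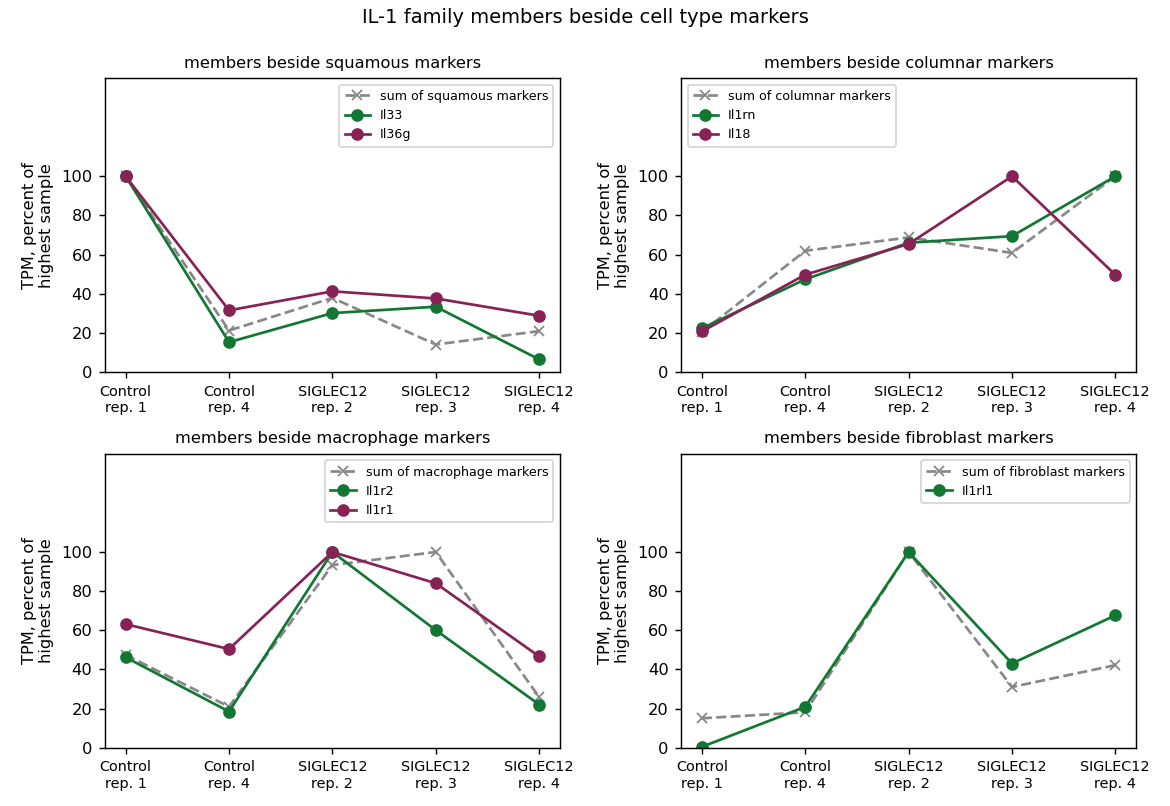
TPM of 7 IL-1 family genes (solid) and summed TPM of 4 marker lists (dashed), each as a percent of its highest sample, in the 5 tumors, with lines that only join points of a gene or list. Il33 and Il36g peak with the squamous sum in Control replicate 1, Il1rn is lowest there with the columnar sum, and Il1r2 and Il1rl1 peak in SIGLEC12 replicate 2.

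The genes most like 6 of the members over the 5 samples were taken by the root mean square difference of standardized log2 values. Il1r1 was closest to C1qb, C1qc and Itm2b (0.0368 to 0.142), and Il1r2 to Itm2b, Laptm5 and C1qc (0.0689 to 0.10). C1qb and C1qc, which encode complement chains made by macrophages, were in the macrophage list. Il36g was closest to Zfp385a, Efna3 and Ovol1, and Il18 to Mmp7, Slc39a8 and Tmem50b. Il1b was closest to Smim11, Ift43 and Klhdc2, and Il1rn to Ireb2, Ap1m1 and Kif2c. With 5 points, such likeness is a description of these libraries.

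Of 11 other genes of the family, 2 passed the filter and 0 were called, with 8 under 1 TPM in every sample. Those 8 included Il1rap, the accessory chain of the IL-1 receptor, at 0.597 to 0.897 TPM, and Il18r1, Il18rap and Il18bp, the receptor chains and binding protein of IL-18. Sigirr, an inhibitory receptor of the family, was at 0.345 TPM in Control replicate 1 and at 1.35 to 1.56 TPM in the other 4 samples. Its log2 difference was 0.39 (SE 0.28, limma adjusted p = 0.323).

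Genes of inflammasomes and of cytokine processing were tested for 14 of 21, and 3 were higher and 0 lower at the unadjusted threshold. Of all genes, 3.97% were higher and 0.445% lower. As deposited, all 14 fold changes were above 0, as were 87.2% of those of all genes. The median was 0.73, against 0.38 for all genes. After rescaling the median was 0.32 and 0 were called, and 0 were without Control replicate 1. Naip2, a sensor of bacterial proteins, was at 1.30 and 3.29 TPM in Control and at 5.86, 5.59 and 6.05 TPM in SIGLEC12, a log2 difference of 1.12 (SE 0.28, limma unadjusted p = 0.00563, adjusted p = 0.0974). Naip2 and Naip1 are similar copies between which reads can be split, so their levels are uncertain. Casp8 (1.02) and Aim2, a DNA sensor (1.10), were the others past the threshold. Pycard, the adaptor that joins sensors to caspase-1, differed by 0.65 (limma adjusted p = 0.101) and Naip1 by 0.98 (limma adjusted p = 0.109). Casp1 itself was at 3.55 and 6.31 TPM in Control and at 9.35, 8.43 and 5.93 TPM in SIGLEC12, with overlap. Nlrp3, the sensor most often named for IL-1β, was at 0.0604 to 0.240 TPM. Protein-coding genes took only 5.70% to 9.72% of the TPM total, so near absence is not shown.

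Signalling genes downstream of the receptors were tested for 22 of 25, and 0 were called in either direction, while 3 had an unadjusted p under 0.05 with less than a 2-fold change. Their median fold change was 0.30, and -0.05 after rescaling, beside 0.38 and 0.01 for all genes. The smallest p belonged to Nfkbib, an inhibitor of NF-κB, at 0.73 (limma adjusted p = 0.0974), followed by the adaptor Myd88 at 0.44 (adjusted p = 0.111), Rela at 0.44 (adjusted p = 0.144) and Tollip at 0.38 (adjusted p = 0.146).

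Genes known to respond to IL-1 were tested for 11 of 18, with 4 higher and 0 lower at the unadjusted threshold. Of all genes, 3.97% were higher and 0.445% lower. The median of the 11 was 0.65, and 0.44 after rescaling, beside 0.38 and 0.01 for all genes. Fewer of the 11 were past the threshold without Control replicate 1, a fit that leaves 1 Control sample. Mmp10, a matrix protease, was at 0.00947 and 2.61 TPM in Control and at 11.6, 4.84 and 5.94 TPM in SIGLEC12. Mmp13 was at 0.0410 and 3.26 TPM in Control and at 9.93, 5.27 and 7.85 TPM in SIGLEC12. The log2 differences were 2.07 and 2.01 (limma adjusted p = 0.0974 and 0.0980). These 2 remained past the threshold after rescaling, where 0.368% of all genes were higher. Saa3, an acute phase protein (1.84, limma adjusted p = 0.108), and Cxcl1, a neutrophil chemokine (1.04, limma adjusted p = 0.103), were the others. Control replicate 1 was lowest for all 4, as it was for Il1b and Il1rl1, and it was lowest or tied for lowest for 14 of the 18 genes. Il6, Ccl2, Ccl20, Csf2 and Csf3 stayed under 1 TPM in every sample, and Lcn2, at 19.7 and 1.68 TPM in Control and at 4.98, 16.0 and 0.832 TPM in SIGLEC12, followed no group.

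**Figure D5:**
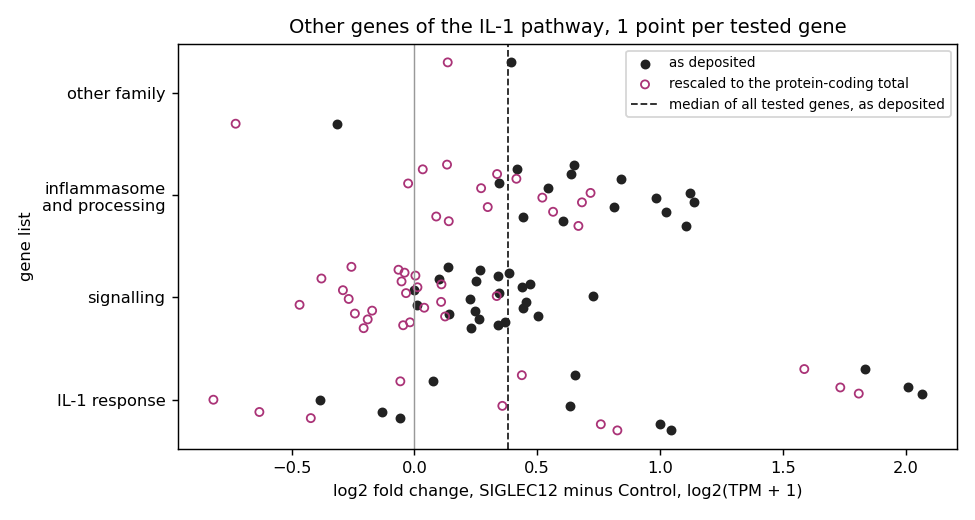
Log2 fold change, SIGLEC12 minus Control, on the log2(TPM + 1) scale for each tested gene of 4 pathway lists, as deposited (filled) and rescaled (open), with the median of all tested genes dashed. The response list holds the widest spread, with Mmp10 and Mmp13 near 2, and the signalling list lies around the median of all genes.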

How the data were processed

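RNA-Seq of colon tumors from 2 Control and 3 SIGLEC12 mice was grouped by the treatment labels. The authors deposited log2 values for 52143 mouse genes, and 2 to the power of each value minus 1 summed to between 999999 and 1000001 per sample, so the values were log2(TPM + 1). The submitters' processing notes name kallisto 0.45.0 and GRCm38. TPM keeps no depth, so depth and counting precision are unknown. The table was read with Python 3.11.15 and pandas 2.3.3. Genes with TPM of at least 1 in at least 2 samples were fitted together with limma 3.58.1 in R 4.3.3 (lmFit, eBayes with a mean-variance trend, Benjamini-Hochberg), on log2(TPM + 1). Thresholds were an adjusted p under 0.05, or an unadjusted p of at most 0.05, each with 2-fold. The fit was tested on simulated data. Single values were compared by exact permutation over the 10 ways to draw 2 of 5 samples. Rescaling multiplied each sample to the mean protein-coding TPM total, by GENCODE M21 biotypes.

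All 10 members were named. Of each pathway or marker list, up to 4 genes with the smallest p were named, plus genes set beside a member, and for each tested member the 3 genes most like it, which for Il33 and Il1rl1 are not reported here. Casp1, Nlrp3, Lcn2, Aim2, Krt4, Krt13, S100a8, Mcpt1, Mcpt2 and the genes listed as under 1 TPM were named after their values were seen. Members and lists were chosen with earlier results of these data known. The human SIGLEC12 transgene was not analysed here. The series describes 3 mice per condition, of which 2 Control samples were used here. Each numbered replicate was taken as 1 mouse. The paper's methods also state that 3 technical replicate libraries were made per sample, and how these relate to the numbered replicates is not stated. Nothing states whether a library holds 1 tumor or several, so p-values cover the spread between these samples. The alternatives tried were 13 and were a pseudocount of 0.1, filters, scalings, each sample left out, and no trend.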

Additional observations from a re-analysis of the deposited data

How the results depend on the processing

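No paired analysis was possible because replicate 4 is the only number found in both Control and SIGLEC12. With all samples, 0 of the 8 tested members passed the adjusted threshold, and 3 were higher and 0 lower at the unadjusted one. Of all genes, 0 passed the adjusted threshold, and 410 were higher and 46 lower at the unadjusted one. The members higher numbered 1 under each of protein-coding rescaling, median-ratio size factors and quantile normalization, and 0 under rescaling without Control replicate 1. All genes then were 38, 46, 45 and 27 higher and 142, 139, 131 and 211 lower. A pseudocount of 0.1 gave 1087 higher, and a filter of TPM at least 5, which tested fewer genes, gave 19 lower. When each sample was left out, members past the adjusted threshold ranged from 0 to 5 and all genes from 0 to 1157, both highest without Control replicate 4, where 1 Control sample remained. At the unadjusted threshold, members ranged from 1 to 4 higher and from 0 to 2 lower, and all genes from 143 to 1374 higher and from 49 to 135 lower.

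Members without overlap and higher, 3 with all samples, ranged from 3 to 6 when 1 sample was left out, and those lower, 0 with all samples, from 0 to 2. After protein-coding rescaling 1 was lower without overlap, and 1 also when Control replicate 1 was left out as well. Under median-ratio size factors and under quantile normalization 0 were. Of all genes, 5593 were higher and 173 lower without overlap. The higher ones numbered 8574 with no filter, 2279 with TPM at least 5, 1616, 1643 and 1884 under the 3 scalings in the order above, and 2396 under rescaling without Control replicate 1. The lower ones numbered 1568, 52, 1741, 1816, 1447 and 3654, and ranged from 212 to 879 when 1 sample was left out.

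The direction of Il1r1 (0.25) turned under the 3 scalings (-0.10, -0.11 and -0.038). Without Control replicate 1, Il33 turned from -0.84 to 0.29 (0.0014 when also rescaled) and Il36g from -0.47 to 0.10. When 1 sample was left out, they ranged from -1.96 to 0.29 and from -1.04 to 0.10. The balance of Il1rn over Il1b (0.04) was -0.27 with a pseudocount of 0.1, -0.10 under protein-coding rescaling and under median-ratio size factors, and -0.14 under rescaling without Control replicate 1, and ranged from -0.25 to 0.31 when 1 sample was left out. That of Il1r2 over Il1r1 (0.22) ranged from -0.00085 to 0.44. The cause was not tested. TPM limits what can be said of genes under 1 TPM, such as Il1a and Il36a.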
